A study of Sus scrofa with 16 samples.

Results

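Clusters of tissue-only peaks are stretches of chromosome in which several open regions found in a single newborn pig tissue lie close together. A tissue-only peak was a peak on chromosomes 1 to 18 without an overlap of 1 bp or more with the other 5 newborn lists. Neighbouring tissue-only peaks of a list were chained where the gap between them was 10 kb or less, and chains of 4 or more peaks were kept. The members were thus chosen by the peak calls themselves, so their number, density and absence from the other newborn tissues are descriptions and were not tested. The rule kept 10139 of 137792 tissue-only peaks (7.36%), in 2156 clusters, out of 527606 autosomal peaks in the 6 newborn lists.

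Chromatin accessibility was profiled by ATAC-seq, which reads open DNA from the places where a transposase can cut and tag it, with 16 libraries of female crossbred domestic pigs. At birth (day 0 in the labels), 6 tissues were taken: spleen, lung, liver, kidney, heart and skeletal muscle. Suckling liver (28 days) and adult liver (180 days) completed the 8 groups of 2 replicates. The animals were untreated, and according to the methods of the study 2 full-sib Berkshire and Tibetan hybrid newborns gave all 6 tissues. The replicates of a group were merged into 1 list, so a count from a list has no replicate error. The labels do not tie the replicate numbers to the animals. These are bulk tissues, in which a region open in few cells and a region weakly open in many cells cannot be told apart.

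In mammalian genomes, genes that define a cell type are often flanked by several enhancers, short stretches of DNA that bind transcription factors and act on promoters over a distance. Dense groups of such elements have been described around genes for contractile proteins in muscle, around secreted plasma proteins in liver and around regulators of cell identity. Tissue-restricted accessible regions are found mostly away from promoters. Each tissue has its own set of factors, among them GATA and MEF2 proteins in heart, C/EBP proteins in liver, NKX2 proteins in lung, MYOD-family proteins in muscle and PU.1 (SPI1) in spleen leukocytes.

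The following 5 sequences are cluster members chosen for a motif match, with 1 peak each from heart, liver, lung, muscle and spleen. The peaks lay outside promoters in a cluster described below and held the tissue's own motif. They are not typical members. In these tissues, the share of cluster peaks outside promoters with the own motif ran from 6.32% in spleen to 24.9% in heart. Each sequence is the plus strand of 200 bases around the peak summit in Sscrofa11.1, read from RefSeq. Capitals mark matches to the motif on either strand. The heart sequence lies at chr10:44791689-44791888 in an intron of CACNB2 and liver at chr8:74593969-74594168 near FGA. The lung sequence lies at chr3:32427540-32427739 near EMP2, muscle at chr15:113066823-113067022 near MYL1, and spleen at chr8:52465329-52465528 in an intron of MARCH1.
Heart, GATA: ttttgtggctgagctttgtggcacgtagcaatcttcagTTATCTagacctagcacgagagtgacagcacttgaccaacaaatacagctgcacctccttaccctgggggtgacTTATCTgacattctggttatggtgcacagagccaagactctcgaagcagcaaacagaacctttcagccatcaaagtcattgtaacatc
Liver, C/EBP: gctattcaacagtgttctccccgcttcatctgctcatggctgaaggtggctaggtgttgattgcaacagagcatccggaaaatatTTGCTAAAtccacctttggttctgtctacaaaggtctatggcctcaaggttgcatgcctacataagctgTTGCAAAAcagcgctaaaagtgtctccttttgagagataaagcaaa
Lung, NKX2: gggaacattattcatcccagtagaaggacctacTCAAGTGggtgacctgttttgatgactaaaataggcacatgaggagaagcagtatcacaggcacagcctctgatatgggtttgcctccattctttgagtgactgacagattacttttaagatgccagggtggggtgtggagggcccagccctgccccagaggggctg
Muscle, MYOD: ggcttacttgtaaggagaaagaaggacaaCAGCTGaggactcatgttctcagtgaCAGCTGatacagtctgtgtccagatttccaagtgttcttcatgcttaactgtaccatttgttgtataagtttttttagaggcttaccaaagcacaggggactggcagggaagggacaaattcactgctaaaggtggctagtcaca
Spleen, SPI1: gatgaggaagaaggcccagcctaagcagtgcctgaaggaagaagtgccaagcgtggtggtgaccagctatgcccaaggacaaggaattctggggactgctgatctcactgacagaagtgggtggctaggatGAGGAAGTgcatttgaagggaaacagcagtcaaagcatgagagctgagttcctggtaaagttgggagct

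The muscle and heart sequences each held 2 matches and came from reproducible peaks. The irreproducible discovery rate (IDR), which is low for peaks that rank high in both replicates, was 0.00599 for the muscle peak and 0.00643 for the heart peak. The muscle peak had a −log10 p of 36.0 in replicate 1 and 41.7 in replicate 2, and the heart peak 31.8 and 44.98. The lung peak had an IDR of 0.0798, with 9.12 and 32.5. The liver and spleen peaks were less reproducible, with IDR values of 0.343 and 0.353. The liver peak had 102 in replicate 1 against 6.05 in replicate 2, and the spleen peak 9.70 and 9.95. The −log10 p depends on the depth of a library, which is unknown from the lists, so it was not compared between tissues.

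Kidney and liver held most of the clusters, with 895 clusters of 4121 peaks in kidney and 672 clusters of 3330 peaks in liver. Spleen had 249 clusters of 1121 peaks, muscle 145 of 699, lung 117 of 510 and heart 78 of 358. The share of a tissue's tissue-only peaks that lay in a cluster was 10.3% in liver, 9.29% in kidney, 5.76% in muscle, 5.67% in spleen, 3.02% in lung and 2.91% in heart. The lists differed in length, and the longest gave the most clusters, with 128184 autosomal peaks in kidney, of which 44353 were tissue-only. Length did not order all tissues. Muscle had the shortest list, with 54830 autosomal peaks, of which 12141 were tissue-only, but more clusters than lung (77408 peaks) and heart (70391 peaks). Each count was therefore set beside the number expected if every peak of that list were tissue-only independently, with the list's own tissue-only share and the peaks at their observed positions.

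More clusters were found than expected in all 6 tissues. As a ratio on the full lists, the excess was largest in heart and muscle, whereas as a number of clusters it was largest in liver (672 against 454) and smallest in lung (117 against 61.2). Heart had 78 clusters where 20.02 were expected, a ratio of 3.90, and muscle had 145 where 39.3 were expected, a ratio of 3.69. The ratio was 1.91 in lung (61.2 expected), 1.85 in spleen (135 expected), 1.48 in liver (454 expected) and 1.15 in kidney (776 expected), with a mean of 2.33 (SD 1.17, n = 6 tissues). With separate tissue-only shares for promoter and other peaks, the ratios were 3.08 in heart, 2.69 in muscle, 1.72 in lung, 1.69 in spleen, 1.45 in liver and 1.11 in kidney. The ratio is a description without a test.

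The order of the tissues by number of clusters depended on the length of the lists. When every list was cut to its 57126 best peaks, the length of the shortest list, muscle had the most clusters with 282 and kidney the fewest with 31. Spleen then had 204, liver 114, lung 82 and heart 66 clusters. The muscle list was the shortest and stayed whole, weak calls included, whereas the other lists lost their weakest peaks. Muscle thereby had 16608 tissue-only peaks, up from 12141, so the cut did not match the lists in strength. Each tissue still had more than expected, with ratios from 1.55 in kidney to 3.54 in heart, and liver (2.67) passed muscle (2.52). The kidney excess also disappeared under 2 other settings. When all 6 lists were limited to peaks with an IDR up to 0.05, kidney had 86 clusters against 105 expected, a ratio of 0.818. With gaps of up to 20 kb, it had 2382 against 2433 expected, a ratio of 0.979. The other 5 tissues stayed above 1 under these settings, some on few clusters or by little. Under the IDR limit, heart had 1 cluster against 0.121 expected and lung 5 against 0.351. With gaps of up to 20 kb, the liver ratio was 1.06.

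**Figure D1:**
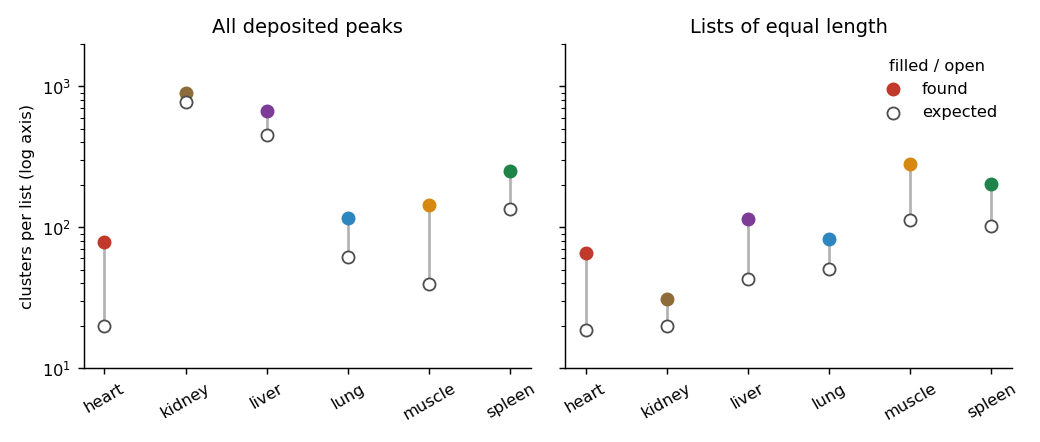
Clusters found (filled points) and expected (open points) in each newborn list, on a log axis, from all deposited peaks (left) and from lists of equal length (right). Kidney lies highest on the left with 895 clusters and lowest on the right with 31, and each filled point lies above its open point.

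The typical cluster was short and held the minimum number of peaks. Clusters of 4 peaks made up 1332 of the 2156 clusters, and 4402 chains of 3 peaks lay just outside the rule. The gap limit fell in a smooth part of the distribution, with 2407 gaps of 9 to 10 kb just inside and 2364 gaps of 10 to 11 kb just outside. The median span was between 14.9 kb in lung and 17.3 kb in heart, and the longest cluster spanned 93.8 kb in liver. Of all clusters, 1021 (47.4%) lay wholly within a protein-coding gene and 677 (31.4%) touched none. A peak in a promoter, from 2.2 kb upstream to 500 bp downstream of a transcription start, was present in 334 clusters (15.5%). The span was free of peaks of every other newborn list in 652 clusters (30.2%).

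Many cluster members were weak calls. No peak reached an IDR of 0.05 in 1083 clusters (50.2%), and all peaks did in 2. Muscle clusters were the most reproducible, with 46 of 145 holding 2 or more peaks at an IDR of 0.05 or lower. The corresponding counts were 148 of 895 in kidney, 116 of 672 in liver, 21 of 249 in spleen, 10 of 117 in lung and 6 of 78 in heart.

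In skeletal muscle, the 5 clusters with the most peaks were nearest to genes of the contractile apparatus. MYBPC1, which encodes slow myosin-binding protein C, was nearest to 15 peaks over 63.6 kb (chr5:82587798-82651364), of which 10 were intronic and 4 at an IDR of 0.05 or lower. The −log10 p of these peaks ran from 4.4 through a median of 7.1 to 64.8 in replicate 1 and from 5.1 through 8.4 to 73.7 in replicate 2. A few strong peaks thus stood among weaker ones in both replicates. MYH1, a fast myosin heavy chain, was nearest to 13 peaks over 44.9 kb, 5 of them with the MYOD motif and 5 in promoters. No peak of any other newborn tissue lay in this span. MYL1, a fast alkali light chain, had 10 peaks over 32.6 kb, with 3 at an IDR of 0.05 or lower and 5 with the motif. NEB (nebulin) and TNNT3 (fast troponin T) had 9 peaks each.

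Regulators of muscle fate were also nearest to clusters. The cluster nearest to MYF6, a myogenic factor, had the most reproducible peaks, with 5 of its 7 at an IDR of 0.05 or lower (chr5:100758033-100780600). Its −log10 p had a median of 29.2 in replicate 1 and 22.8 in replicate 2, and ran from 8.7 to 34.9 and from 4.4 to 38.0. EYA4, a transcriptional cofactor of muscle precursors, had 5 peaks with none at that IDR. MEF2C, a partner of the myogenic factors, had 4 peaks, 246 kb from its start, and was also nearest to 5 peaks in liver. MYH2, a further fast myosin, had 4 peaks in 3.4 kb. ATP2A1, the calcium pump of the fast sarcoplasmic reticulum, had 7 peaks in 7.2 kb, and 6 of these lay in promoters.

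In heart, the leading cluster lay upstream of RYR2, the calcium release channel of cardiac muscle (chr14:54427351-54459237). It held 7 peaks over 31.9 kb, with its centre 36.6 kb from the gene start (distances are from cluster centres), and no other newborn tissue had a peak in the span. The −log10 p ran from 3.8 to 66.0 (median 16.7) in replicate 1 and from 9.5 to 103 (median 23.8) in replicate 2, and 4 of the 7 peaks had an IDR of 0.05 or lower. Another 3 clusters lay in introns of RYR2, and together the 4 clusters had 20 peaks. None of the intronic members reached an IDR of 0.05.

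In all, 6 heart clusters had 7 peaks, of which the 5 with the highest summed −log10 p were named by rule. The remaining cluster lay within NEBL, a gene of the actin-based contractile apparatus, with C10H10orf113 as nearest start and no peak at an IDR of 0.05 or lower. A cluster inside CACNB2, a calcium channel subunit, held 4 peaks with a GATA or MEF2 motif, and its nearest gene start was that of LOC100524391. The nearest starts of the others were STEAP4, KIAA0754 (within MACF1) and WSCD2. Among heart function genes, CORIN, the protease that activates natriuretic peptide, had 5 peaks inside the gene. TNNT2, cardiac troponin T, had 4 peaks in 2.4 kb, 12.8 kb from its start. The cluster nearest to MYBPC3, cardiac myosin-binding protein C, also touched the neighbouring gene SPI1, and 8 peaks of other newborn lists lay in its span.

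In liver, the 5 clusters with the most peaks held from 17 to 30 peaks each, more than any cluster of the other tissues. CPS1, the first enzyme of the urea cycle, carried 30 peaks within the gene over 78.5 kb (chr15:113213857-113292372), of which 22 were intronic and 8 overlapped exons. Further clusters of 6 and 11 peaks, with CPS1 as nearest start, lay farther along the gene and past its end. A2M, a plasma protease inhibitor, was nearest to 24 peaks that also covered its relative PZP. LOC100739741 was nearest to 19 peaks that also touched CYP2C33, a cytochrome P450 gene with close relatives in the region. The study removed low-quality alignments, and whether reads of similar copies were assigned uniquely there was not tested. FN1 (fibronectin) had 19 peaks with 11 over exons, and FGA (fibrinogen alpha chain) 17.

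The replicates of newborn liver differed in strength in these clusters. In the CPS1 cluster the −log10 p ran from 3.1 to 359 (median 7.0) in replicate 1 and from 3.5 to 35.3 (median 5.7) in replicate 2. In the cluster upstream of ALB, the albumin gene, all 6 peaks ran from 49.5 to 327 in replicate 1 and from 5.4 to 43.9 in replicate 2, and 4 had an IDR of 0.05 or lower. The cluster with the most such peaks was nearest to SLC6A11, a GABA transporter gene, with 5 of 16. Replicate 1 was thus the stronger in the ALB cluster, and the part of the depth of the libraries in this was not tested.

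Of the other listed liver genes, SERPINA1 (alpha-1 antitrypsin) was nearest to 11 peaks, TF (transferrin) to clusters of 6 and 9 peaks, and APOB to clusters of 5 and 4 peaks. The TF clusters touched separate annotated genes that share this symbol, 44558 and 39945 bp long. PCK1, a gluconeogenic enzyme, had 6 peaks, and APOA1 had 4 peaks that also touched SIK3. Among the regulators, ONECUT1 had 7 peaks, NR5A2 had 5, and PROX1 had 4 at 140 kb.

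In kidney, the largest cluster was nearest to TINAG, a basement membrane protein of the tubules, with 13 peaks over 62.3 kb that also touched MLIP (chr7:26512029-26574319). Its −log10 p ran from 3.5 to 26.5 (median 6.0) in replicate 1 and from 4.4 to 45.5 (median 12.9) in replicate 2. LOC106504574 was nearest to 10 intergenic peaks, of which 4 had an IDR of 0.05 or lower. PEBP4, BCAR1 (within CFDP1) and MGAT5 had 9 peaks each.

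Regulators of nephron formation were the nearest genes of several kidney clusters, some of them far from the gene start. LHX1, needed for early nephron structures, had clusters of 7 peaks over 26.9 kb (chr12:38370338-38397187) and of 6 peaks over 21.6 kb, with none at an IDR of 0.05 or lower. The cluster of 7 lay 66.9 kb from the LHX1 start and touched LOC110255902, whereas the cluster of 6 lay at 6.3 kb. SALL1, a factor of nephron progenitors, had 2 intergenic clusters of 4, at 132 and 179 kb. TFAP2B and ESRRG had 5 peaks each, those of ESRRG intergenic at 164 kb, and PAX2 had 4 within the gene. SLC22A6, the organic anion transporter of the proximal tubule, had 5 peaks. SLC12A3, the sodium chloride cotransporter of the distal tubule, was nearest to 5 peaks that lay within NUP93. GDNF, the growth factor of ureteric budding, had 4 intergenic peaks with an IDR no lower than 0.617.

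In lung, the clusters were small. FOXP2, a transcription factor of airway and alveolar epithelium, was nearest to the largest, with 8 peaks within the gene over 34.2 kb (chr18:31853023-31887262), and to clusters of 4 and 5 peaks. The −log10 p in the largest had a median of 4.3 in replicate 1 and 12.7 in replicate 2, with highest values of 18.9 and 75.0. LOC110255652 also had 8 peaks, TMEM213 had 7 that touched ATP6V0A4, a proton pump subunit, and CAVIN2, a caveolar protein, and WDR11 had 6 each. The most reproducible lung cluster was nearest to EMP2, with 3 of 4 peaks at an IDR of 0.05 or lower. SOX2, a factor of the airway epithelium, was nearest to 5 intergenic peaks. Their medians were 6.0 in replicate 1 and 54.1 in replicate 2.

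In spleen, the largest clusters were not near genes of the spleen lists. PREP was nearest to 11 intergenic peaks over 44.5 kb, with 3 at an IDR of 0.05 or lower (chr1:72080678-72125159). RPAP2 had 9 peaks, and LOC100515209 and CACNB4 had 8 each. A cluster of 7 peaks within MARCH1, a ubiquitin ligase of antigen-presenting cells, had TMA16 as nearest start. Of the listed genes, NKX2-3, a homeobox gene of spleen stroma, had 5 peaks with 2 at an IDR of 0.05 or lower. PTPRC, the CD45 surface phosphatase of leukocytes, had 5 intronic peaks. IRF8, TCF7 and BCL11B, regulators of myeloid and T cells, had 4 each, and the BCL11B cluster lay 1034 kb from the gene start.

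**Figure D2:**
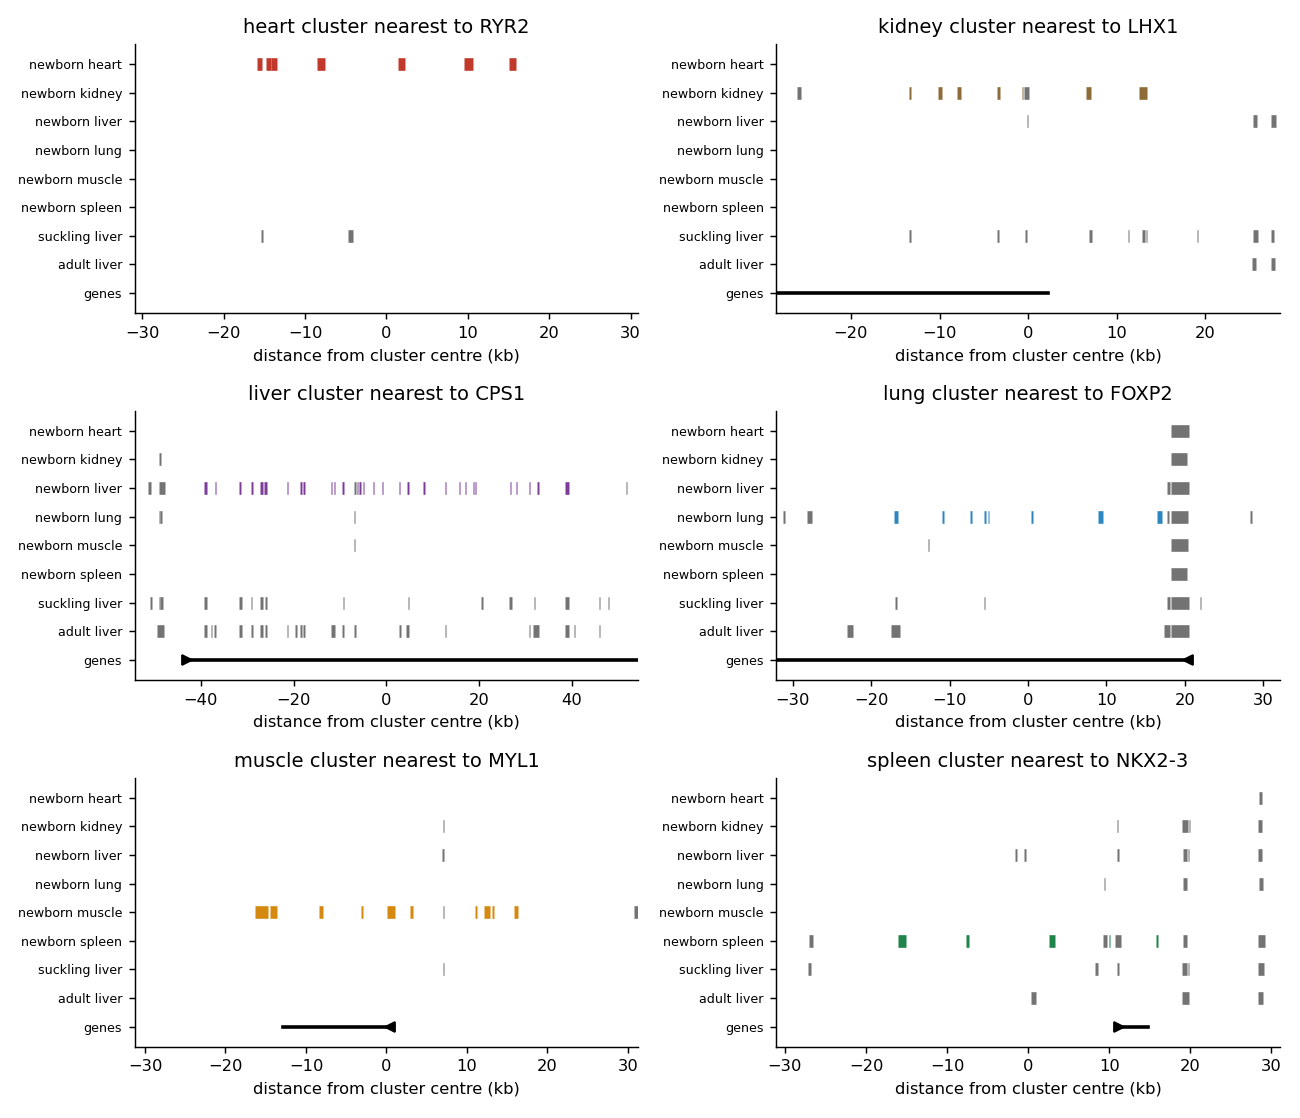
Peaks of the 8 lists around 1 named cluster per tissue, by distance from the cluster centre in kb, with cluster members in colour, other peaks in grey, and gene bodies with an arrow at the start below. No grey newborn peak lies within the span of the RYR2 cluster in heart, whereas the CPS1 cluster in liver recurs in part in suckling liver (9 of 30 members) and adult liver (18 of 30).

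To set the named genes in context, lists of genes known as regulators or function genes of the 6 tissues were made. They held 178 entries, with some genes on several lists, and 170 entries were found among the 18725 protein-coding genes. Of these, 39 were nearest to a cluster of their own tissue. In liver, 8 of 14 function genes (57.1%) and 4 of 14 regulators (28.6%) were nearest to a liver cluster, where 3.36% of all protein-coding genes were. In kidney, 6 of 14 regulators (42.9%) and 3 of 15 function genes were, beside 4.19% of all genes. Muscle had 3 of 14 regulators (21.4%) and 4 of 13 function genes (30.8%) beside 0.689%.

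Heart, lung and spleen each had a list with 1 or 0 genes near a cluster. Heart clusters were nearest to 4 of 13 function genes (30.8%) and to 0 of 12 regulators, beside 0.385% of all genes. In lung, 2 of 14 regulators (14.3%) and 0 of 15 function genes were nearest to a cluster, beside 0.577%. The lung function list held the surfactant and epithelial genes. Spleen had 4 of 17 regulators (23.5%) and 1 of 15 function genes (6.67%), beside 1.28%. No set test was made, and the lists were written with earlier results of these data known.

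A gene with distant neighbours is nearest to more positions. The stretch of chromosome in which a gene start is the nearest had a median of 50.6 kb over all protein-coding genes. For genes nearest to a cluster it was between 132 kb in liver and 257 kb in heart. For the lists it was between 31.3 kb for muscle function genes and 218 kb for heart regulators. In kidney, lung and spleen, the list with the longer stretch had the higher share near a cluster. In heart, liver and muscle, it had the lower share. The part of this length in the counts was not tested.

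Against the 39 genes near clusters of their own tissue, 17 matches of a list entry with another tissue were counted over the other 5 tissues. A gene on several lists was counted for each list. For liver, this held for GATA6 (heart and lung lists) and MEF2C (heart and muscle lists). MEF2C also counted for muscle through the heart list, although it is among the 39, so the counts are not disjoint. CEBPA, a liver regulator, was nearest to a spleen cluster, GATA6, a heart and lung regulator, to a liver cluster, and SOX9, a lung regulator, to 3 kidney clusters with 18 peaks. PAX5, a B-cell regulator, was nearest to a kidney cluster, and EBF1, another, to a liver cluster. Some genes named above for their own tissue were also among these matches. MEF2C was nearest to 5 peaks in liver beside 4 in muscle, and IRF8 to 5 in kidney beside 4 in spleen. SALL1 and SLC12A3, named for kidney, were each nearest to 4 peaks in liver. No listed function gene of liver, lung, muscle or spleen was nearest to a cluster of another tissue.

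**Figure D3:**
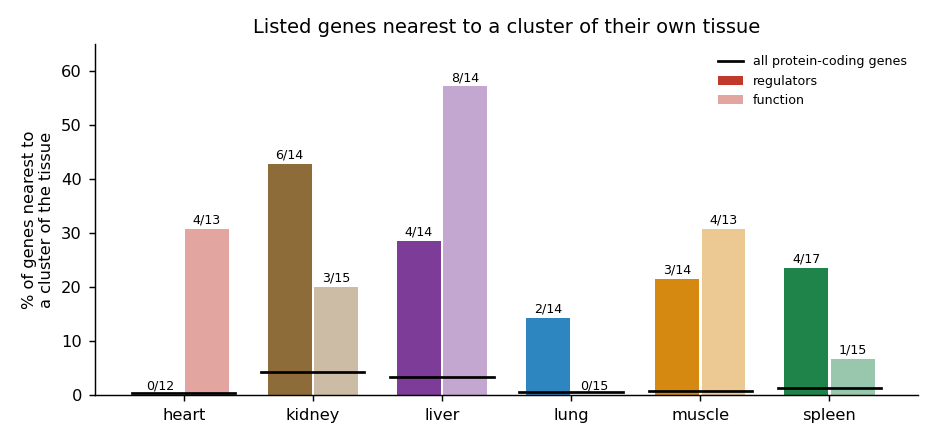
Percent of listed genes that were nearest to a cluster of their own tissue (dark bars, regulators, and pale bars, function genes, with counts above), and the percent of all protein-coding genes (black lines). Bars run from 0 for heart regulators and lung function genes to 57.1% for liver function genes, and the lines from 0.385% to 4.19%.

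Of the genes nearest to any cluster, 1727 (93.7%) were nearest to clusters of a single tissue, whereas 114 were nearest to clusters of 2 tissues and 3 to clusters of 3. Kidney and liver shared 46 genes, which were 5.86% of the kidney genes and 7.30% of the liver genes. The tissue-only rule keeps clusters of different tissues from sharing a peak, but not from sharing a gene. The genes of a tissue's clusters were from 0.385 to 4.19% of all protein-coding genes, and unrelated lists of such lengths would also share few genes. Kidney genes made up from 5.43% of the muscle genes to 10.2% of the lung genes, beside 4.19% of all genes. Liver genes were 7.75% of the muscle, 5.86% of the kidney and 5.0% of the spleen genes, beside 3.36% of all genes. They were 2.78% of the heart and 1.85% of the lung genes. These shares were not tested.

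The 3 genes with clusters in 3 tissues were BCL11B, ALPK2 and KCNMA1. BCL11B had 13 peaks in 3 kidney clusters, 6 peaks in liver and 4 in spleen. The kidney clusters lay 45.4, 327 and 510 kb from the gene start, the liver cluster 818 kb and the spleen cluster 1034 kb. ALPK2, an alpha kinase gene, had 9 peaks in liver, 4 in muscle within the gene and 4 in spleen, and the spleen cluster lay within the span of the liver cluster. KCNMA1, a potassium channel gene, had 4 peaks in liver, 4 in muscle and 5 in spleen. The liver and spleen clusters lay within the gene, whereas the muscle cluster was intergenic, 980 kb from the gene start. ADAMTS16 was nearest to 4 kidney clusters with 20 peaks and to a heart cluster of 4, 431 kb from the gene start, beside the outermost kidney cluster at 456 kb. PPP1R3D had 20 peaks in 4 kidney clusters and 5 in liver.

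Clustered peaks were then compared with the other tissue-only peaks of the same list on 8 measures that the rule did not use. The exact two-sided sign-flip permutation test ran over the 6 tissues, with 0.031 as the smallest p it allows, and Benjamini-Hochberg adjustment over the 8 measures. No difference passed adjustment, and this design could not give an adjusted p under 0.05 unless 6 of the 8 measures reached the smallest p. The tissues came from the same animals, so the p-values describe the spread among tissues.

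Clustered peaks were more often reproducible in all 6 tissues. The share at an IDR of 0.05 or lower was 14.5% in clustered and 11.9% in other tissue-only peaks, a difference of 2.56 percentage points (SD 2.14, n = 6; exact permutation p = 0.031, adjusted p = 0.25). Muscle showed the widest difference (23.7% against 17.1%) and lung the narrowest (11.8% against 11.2%). Neighbouring peaks in a list share their chromosome domain and libraries, and the part of this in the difference was not tested.

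Features of the sequence differed between tissues in direction. The promoter share was higher in clusters in muscle (7.30% against 3.34%), spleen (6.78% against 4.38%) and liver (6.10% against 3.87%), and lower in heart (2.23% against 2.78%) and kidney (3.25% against 3.66%). The mean difference was 1.28 points (SD 1.85, higher in 4 of 6 tissues, exact permutation adjusted p = 0.4). The intron share differed by 2.07 points (SD 3.50, 5 of 6, exact permutation adjusted p = 0.4), with heart at 57.3% against 50.2%. GC content differed by 0.34 points (SD 1.12, 4 of 6, exact permutation adjusted p = 0.583), and soft-masked repeat bases by 0.755 points (SD 1.41, 4 of 6, adjusted p = 0.4).

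Exon and promoter shares were highest in chains of 8 or more in muscle, liver, spleen and kidney. In muscle, 18.8% of the 80 peaks in chains of 8 or more lay in promoters and 16.3% in exons, against 3.17% and 7.97% of the 7845 unchained peaks. In liver, the exon share was 14.9% in chains of 8 or more (410 peaks) and 8.45% in unchained peaks. The exon share in chains of 8 or more was 16.7% of 36 peaks in spleen. In kidney, 6.71% of 164 peaks lay in exons and 5.49% in promoters, against 6.48% and 3.71% of unchained peaks. Members of a cluster share a gene, so these shares are descriptions.

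The motif of the tissue was less frequent in clusters than in other tissue-only peaks in heart, kidney, liver and muscle, and more frequent in lung and spleen, which did not pass the test. Motifs were searched on both strands of the 200 bases around the summit, outside promoters, with AGATAA for GATA, MEF2 by name, TTGCNNAA for C/EBP, TCAAGTG for NKX2, CAGCTG for MYOD and GAGGAAGT for SPI1. The mean difference in share was −1.39 points (SD 2.55, higher in 2 of 6 tissues, exact permutation adjusted p = 0.4). In muscle, MYOD was found in 24.4% of clustered peaks (158 of 648, Wilson 95% interval 21.2 to 27.8%), in 30.5% of other tissue-only peaks and in 28.7% of all muscle peaks. In heart, GATA or MEF2 was found in 24.9% against 26.9%.

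Some motifs were more frequent in their own clusters than in those of every other tissue. SPI1 was found in 6.32% of spleen cluster peaks and in 0 to 1.505% elsewhere, where 0 of 350 heart peaks had it (Wilson 95% interval up to 1.09%). NKX2 was found in 8.37% of lung cluster peaks and in 2.06 to 4.32% elsewhere, and GATA in 18.6% of heart cluster peaks and in 5.34 to 14.1% elsewhere. C/EBP did not follow this order, with 13.8% in liver and 14.4% in spleen, and MYOD was nearly as frequent in spleen (23.8%) as in muscle (24.4%). The motifs were not particular to clusters. In the other tissue-only peaks, SPI1 was found in 6.14% in spleen, NKX2 in 7.45% in lung and GATA in 20.9% in heart. These shares were not tested, and a match is a description of the letters.

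**Figure D4:**
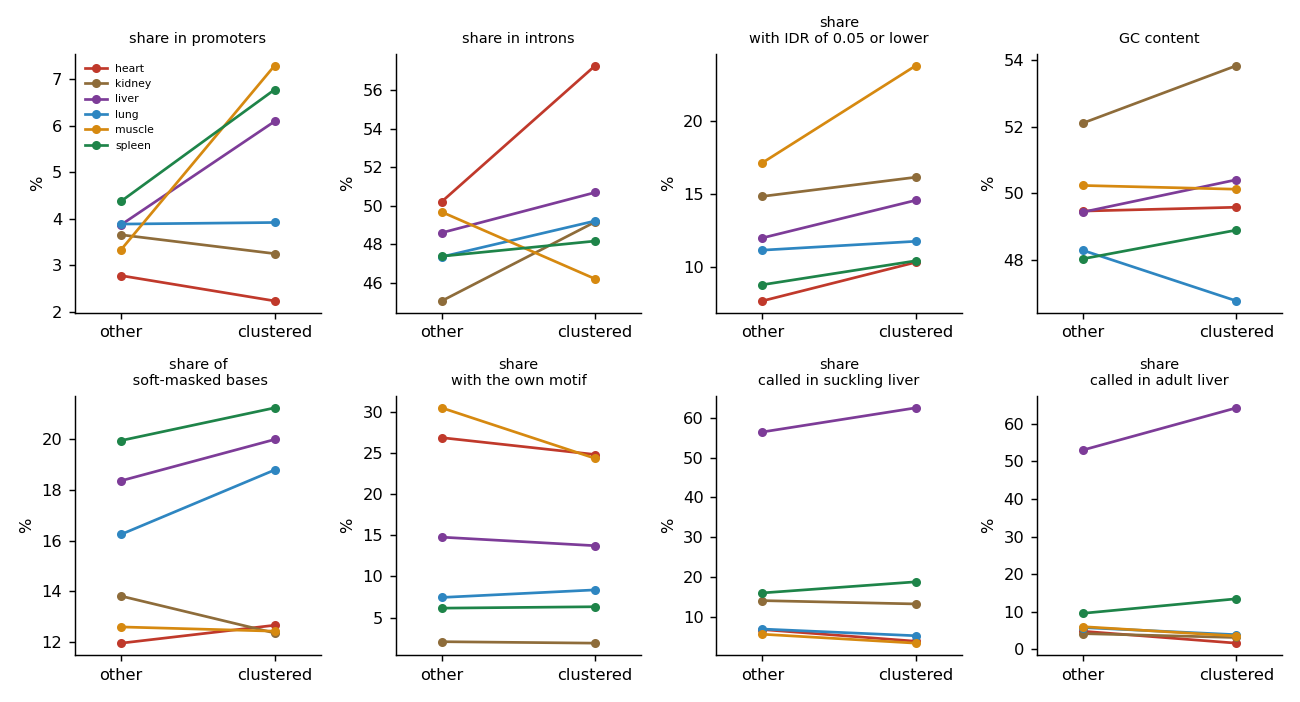
The 8 measures in other tissue-only peaks and in clustered peaks, each axis in percent with its own range, and each line 1 tissue. All 6 lines rise for the share at an IDR of 0.05 or lower, whereas the other panels hold lines in both directions.

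Newborn liver clusters were called again at later ages more often than other liver-only peaks. In suckling liver, 62.5% of the 3330 clustered peaks overlapped a peak (Wilson 95% interval 60.8 to 64.1%), against 56.4% (55.9 to 57.0%) of the other liver-only peaks. In adult liver, the shares were 64.3% (62.6 to 65.9%) and 53.0% (52.5 to 53.6%). The intervals cover counting error only and do not overlap, but each age is a single pooled list, and peaks of a cluster are not independent. The share called in adult liver was 50.0% in unchained liver-only peaks, 60.8% in clusters of 4, 67.6% in chains of 5 to 7 and 65.4% in chains of 8 or more.

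Clusters of the other tissues were mostly not found in later liver. Spleen clusters exceeded other spleen-only peaks, with 18.8% against 16.0% in suckling liver and 13.5% against 9.62% in adult liver. Heart, kidney, lung and muscle clusters lay below, with heart at 3.91% against 6.85% in suckling liver. Across all 6 tissues, the difference was 0.192 points for suckling liver (SD 3.50, higher in 2 of 6, exact permutation adjusted p = 0.906) and 1.08 points for adult liver (SD 5.56, 2 of 6, adjusted p = 0.893).

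Whole clusters differed widely in how much of them was called later. All members were called in suckling liver in 95 of 672 clusters (14.1%) and in adult liver in 139 (20.7%), and none in 25 and 37. At both ages, 54 clusters were complete, whereas 14 had no member at either age. The ONECUT1 cluster of 7 peaks, the upstream ALB cluster of 6 and the PCK1 cluster of 6 were complete at both ages. The cluster near LOC100739741 had 16 of 19 members in suckling and all 19 in adult liver. The second TF cluster had 7 of 9 in suckling and 1 in adult liver. None of the 6 peaks of the liver BCL11B cluster was called at either age.

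**Figure D5:**
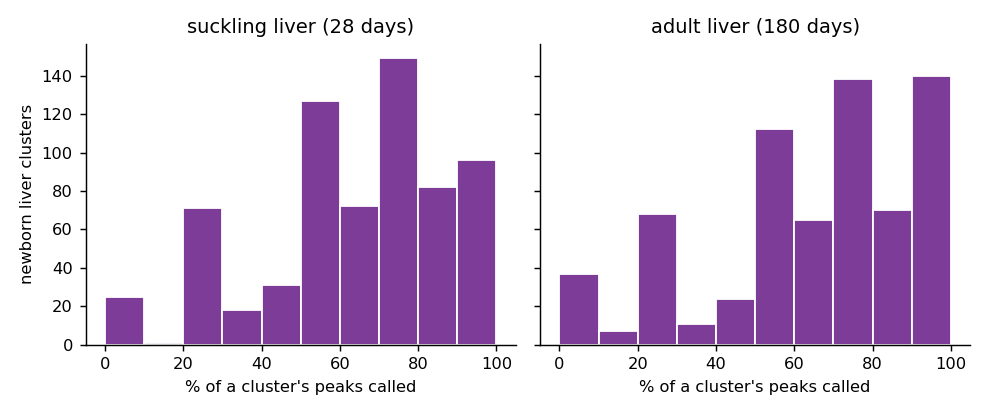
Number of newborn liver clusters by the percent of their peaks that overlapped a peak of suckling liver (left) or adult liver (right), in bins of 10 points. The median cluster had 66.7% of its peaks called in suckling and 75.0% in adult liver.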

How the data were processed

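Peak lists of 16 ATAC-seq libraries in 8 groups were used, 1 merged list per group. According to the methods and the submitters' processing notes, the authors aligned reads to Sscrofa11.1 with Bowtie2, filtered them with SAMtools 1.3.1, called peaks with MACS2 and matched the replicates with IDR. The columns deposited by the authors hold a −log10 p per replicate and a score, a rescaled IDR that reaches 540 where the IDR is 0.05. The lists were not filtered on IDR. Read counts per peak are absent from them, and depth is therefore unknown at the level of a peak. The read totals that the study lists per library were not used here, and a region without a peak is only a region without a call.

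Tissue-only peaks, chains, features from the RefSeq annotation of Sscrofa11.1, nearest protein-coding gene starts and motif matches were computed in Python 3.11.15 with numpy 2.4.6 and pandas 2.3.3. Cluster positions run from the first base of the first peak to the last base of the last, and are counted from 1. The expected number of clusters came from an exact dynamic program that was tested on simulated data. Clusters were given no p. Wilson 95% intervals cover counting error only.

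Named genes were nearest to the 5 clusters with the most peaks per tissue (ties by the summed smaller −log10 p), to the cluster with the most peaks at an IDR of 0.05 or lower, to a cluster of their own tissue for listed genes, or to clusters of the most tissues (up to 5 genes). Genes of another tissue's lists and members of single clusters at later ages were picked afterwards. Some listed genes and the kidney motif, which is counted in the tests over 6 tissues, are not reported here by name. The members, lists and motifs were chosen with earlier results of these data known. Gap, size, IDR, list length, overlap, replicate, promoter and motif settings were varied, as the closing section gives.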

Additional observations from a re-analysis of the deposited data

Results flagged for a closer look

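Chromosome X was outside the rule for clusters, and its peaks entered no comparison above. The same chaining gave 10 clusters on chromosome X in kidney, 8 in liver and 8 in spleen. They are given because they lie in data that the comparisons did not use. Lung had 3, and heart and muscle had 1 each. No expected number was computed for chromosome X.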

How the results depend on the processing

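The number of clusters followed the rule. It was 471 with gaps of 5 kb, 5523 with 20 kb, 6558 with 3 or more peaks, 824 with 5 or more, 779 with lists of equal length and 3290 where an overlap had to cover a share of 0.5 of the peak. It was 13 with an IDR limit of 0.05 on the tissue's own list and 153 with that limit in every list. The mean ratio of found to expected clusters was 3.80, 1.46, 1.58 and 4.02 for the gap and size settings in that order, 1.91 under the overlap setting, 1.955 with promoter shares apart and 6.10 with the limit in every list. With the limit on the own list it was 68.1, a mean that rests on heart, with 1 cluster where 0.0028 were expected. Taking intervals from a single replicate gave 2271 to 2357 clusters and ratios from 2.09 to 2.25.

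Of the differences between clustered and other peaks, that in introns turned to −0.717 points with gaps of 5 kb and to −10.4 with the limit in every list, and that in soft-masked bases to −1.30 with the limit in every list and −0.0409 under the overlap setting. The own motif turned to 0.427 with gaps of 5 kb and 0.0999 for the reversed consensus. The suckling liver difference turned to −0.358 with gaps of 5 kb, −0.121 with the limit in every list, −0.625 under the overlap setting and, over intervals from a single replicate, ran from −0.0409 to 0.468, and the adult liver difference to −1.79 with the limit in every list. None of these passed adjustment. The causes were not tested. With the limit on the own list, lung and spleen had no clusters, and the tests could not be made.

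No paired analysis was possible because no result here comes from a test over samples: a peak is called once for both replicates of a group, and the tests ran over tissues. The labels do not say whether a replicate number marks the same animal across newborn tissues.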
